A study of Mus musculus with 6 samples.

Results

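The SF3B complex is a group of 7 proteins, and the 7 genes that encode them in the mouse, Sf3b1, Sf3b2, Sf3b3, Sf3b4, Sf3b5, Sf3b6 and Phf5a, are described here. They were found in the files by their symbols, and each matched a single Ensembl ID among the 54532 in the count files. Total RNA was sequenced from heads of mouse embryos at embryonic day 8.5, in pools of 3 heads, with 3 wild-type pools (genotype entry WT) and 3 mutant pools (genotype entry Sf3b4 NCC mutant, where NCC stands for neural crest cells). The mutant samples are titled as homozygous nulls, whereas the design text describes a deletion limited to neural crest cells, the migratory cells that build much of the face; the second reading is used here. The sources used here do not give the driver of the deletion, the deleted exons, the strain, or whether the wild-type pools carried any of the same alleles. No label ties a pool to its own litter, and the p-values therefore reflect only the scatter of these pools, which may be technical.

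SF3B is part of the U2 small nuclear ribonucleoprotein, the particle that pairs with the branch site of an intron before splicing. SF3B1, a large protein built of helical repeats, clamps around the paired branch site together with PHF5A and holds the bulged adenosine that starts the splicing reaction. The same complex serves the minor spliceosome, and loss-of-function variants of human SF3B4 are the main known cause of Nager syndrome, in which facial and limb bones form abnormally.

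The pools held 6930827 to 12251910 counts, and 14008 genes had enough counts to be tested. Of these, 6.52% passed the test between the genotypes, with 2.65% higher in the mutants and 3.88% lower (two-sided quasi-likelihood test of edgeR, Benjamini-Hochberg adjusted p under 0.05). Correcting for exon length and GC gave 647 genes higher and 536 lower, against 371 and 543 without it. In 28.3% of the tested genes the values of the genotypes did not overlap, with the mutants above in 13.8% and below in 14.4%. Wild-type pool 1 and mutant pool 3 held 1 count each on Y-linked genes, and the other pools 344 to 664. All 7 SF3B genes were among the genes tested. Of the 7, Sf3b3, Sf3b1 and Phf5a rose, beside the 2.65% of all genes that did so, and the other 4 did not pass. None fell by edgeR, DESeq2 or limma-voom. At an unadjusted p under 0.05 (edgeR), 5 of the 7 were higher and 1, Sf3b4, was lower. At least 3098 of the 14008 tested genes reached that unadjusted level, in either direction. The median log2 fold change of the 7 was 0.20, against 0.00 over all genes tested.

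**Figure D1:**
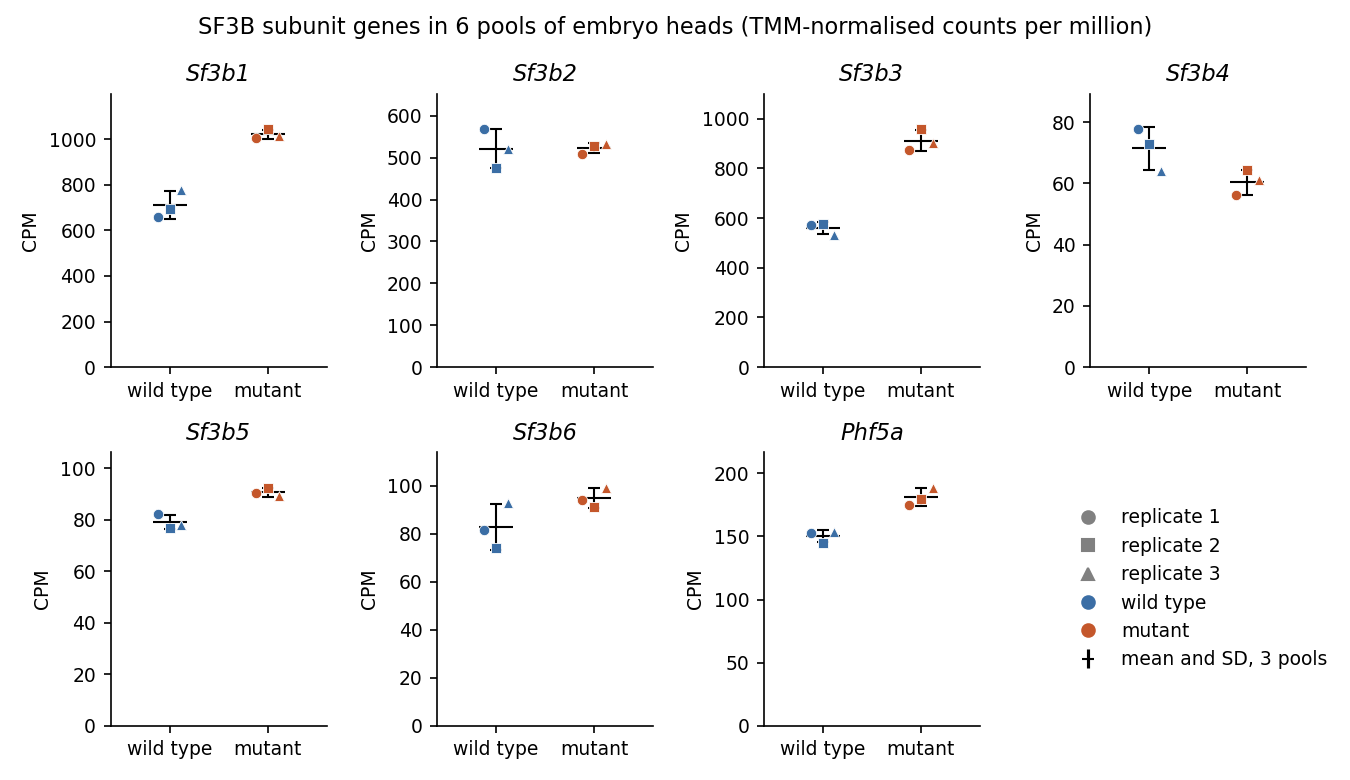
CPM (counts scaled by library size and TMM factors) of the 7 SF3B subunit genes on linear axes from 0, with 1 symbol per pool and the mean and SD of 3 pools. The mutant pools lie above all wild-type pools for Sf3b1, Sf3b3, Sf3b5 and Phf5a and overlap them for Sf3b2, Sf3b4 and Sf3b6.

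Sf3b4, the deleted gene, encodes a protein with RNA recognition motifs that binds SF3B2 and touches the intron upstream of the branch site. It lies at chr3:96172332-96177564 (mm10, plus strand) with 6 exons. Its reads numbered 838, 515 and 742 in wild-type pools 1, 2 and 3 and 683, 610 and 450 in mutant pools 1, 2 and 3. Put on one library size, as CPM, these were 77.7, 72.8 and 63.9 against 56.1, 64.2 and 60.9. Mutant pool 2 lay just above wild-type pool 3, so the groups overlapped. The change was -15.5% (95% interval -26.2% to -3.28%), and the adjusted p of 0.128 (edgeR) did not pass. Without wild-type pool 3, the lowest wild-type pool, the log2 fold change was -0.32 and passed (edgeR adjusted p = 0.0288), and after correction for exon length and GC it was -0.26 and passed (edgeR adjusted p = 0.046). The first of these fits called 12.7% of all tested genes and the second 8.45%, against 6.52% in the main fit. Sf3b4 did not pass in the other 18 of 20 alternative settings, and the difference was smallest without wild-type pool 1 (-0.17, edgeR adjusted p = 0.282), among the 4 pools that had Y-linked counts (-0.18, 0.35) and without mutant pool 1 (-0.19, 0.441). In a pool of whole heads, fewer cells of a type and less RNA per cell cannot be told apart, and counts per gene do not separate transcripts with and without the deleted part.

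Part of Sf3b4 may not be read uniquely. A processed pseudogene, Gm7935 (chr15:74080234-74081511, minus strand), matches 1278 bases of the Sf3b4 transcript, or 66.7% of its length, at 99.3% identity. Gm7935 itself was listed at 36 counts over the wild-type pools and 22 over the mutant pools, 1.51% of the counts of Sf3b4. Adding its counts to those of Sf3b4 gave a log2 fold change of -0.25 (edgeR adjusted p = 0.118). The sources used here do not give how reads that match both places were counted, and their part in the level of Sf3b4 was not tested. The 5′ end of Sf3b4 also shares 85 bases, 3.93% of its exonic length, with the opposite-strand transcript Gm17690, which had 111 and 133 counts in the 2 groups.

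Sf3b3 showed the largest change of the 7. It encodes a protein of linked beta-propellers that packs against the SF3B1 repeats, and it lies at chr8:110810239-110846787 (mm10, minus strand), with 26 exons in its longest coding transcript. Its levels were 574, 575 and 531 CPM in the wild-type pools and 875, 958 and 901 CPM in the mutant pools. The lowest mutant pool exceeded the highest wild-type pool by 53.7% of the wild-type mean. Sf3b3 thus rose from 560 ± 24.9 to 911 ± 42.2 CPM (SD, n = 3 pools each), a log2 fold change of 0.70 (SE 0.0727, 95% interval 0.55 to 0.86, edgeR adjusted p = 4.17e-05), or 1.63-fold. By its p it stood at place 13 among the 14008 tested genes, and by its fold change at place 244 from the top. The log2 fold change ran from 0.67 to 0.82 over 20 alternative settings, some of which barely alter the fit, and passed in each.

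Sf3b1, the gene of the branch-site clamp and the subunit bound by splicing inhibitors of the pladienolide kind, lies at chr1:54985169-55027481 (mm10, minus strand) with 25 exons. Wild-type pools had 657, 694 and 778 CPM, and mutant pools had 1006, 1043 and 1012 CPM. The mutant pools lay close together and 32.0% of the wild-type mean above the nearest wild-type pool. The rise was 1.44-fold, a log2 fold change of 0.52 (SE 0.0769, 95% interval 0.36 to 0.69, edgeR adjusted p = 0.000854), and it passed in the same 20 settings, with 0.47 to 0.60. Sf3b1 and Sf3b3 had the lowest counting errors of the SF3B genes, at most 1.57%, with at least 4068 counts in any pool. Only 0.764% and 1.06% of tested genes had a higher mean CPM. Counting error leaves out the spread between pools. In the wild-type pools the SD was 8.77% of the mean for Sf3b1 and 4.44% for Sf3b3. It was lower for Phf5a (3.20%) and Sf3b5 (3.62%) and higher for Sf3b2 (8.84%), Sf3b4 (9.76%) and Sf3b6 (11.5%).

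The promoters of Sf3b1 and Sf3b3 are printed because their transcripts rose, beside that of Sf3b2, which did not pass, for comparison. They come from RefSeq (GRCm38.p6, the assembly of mm10), whose promoter table held 4 of the 7 genes, and run from 250 bases before to 50 bases after the annotated start, on the gene's strand. Capitals mark every match, on either strand, to any of 7 short motifs: GGGCGG, known as the GC box; CCAAT, which NF-Y factors bind; TATAAA, which the TATA-binding protein recognises; CACGTG, known as the E box; CCGGAA, the core of ETS factor sites; GCGCATG, the core of NRF1 sites; and AAGATGG, the core of YY1 sites. A pair of p53 half-sites was searched as well. No match overlaps another.
Sf3b1, chr1:55027429-55027728, minus strand: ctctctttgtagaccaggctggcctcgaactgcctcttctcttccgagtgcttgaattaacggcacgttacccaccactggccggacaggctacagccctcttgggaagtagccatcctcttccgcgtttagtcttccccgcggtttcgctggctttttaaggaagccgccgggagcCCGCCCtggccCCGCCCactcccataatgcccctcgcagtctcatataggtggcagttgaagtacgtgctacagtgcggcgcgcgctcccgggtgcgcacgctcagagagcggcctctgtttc
Sf3b3, chr8:110846754-110847053, minus strand: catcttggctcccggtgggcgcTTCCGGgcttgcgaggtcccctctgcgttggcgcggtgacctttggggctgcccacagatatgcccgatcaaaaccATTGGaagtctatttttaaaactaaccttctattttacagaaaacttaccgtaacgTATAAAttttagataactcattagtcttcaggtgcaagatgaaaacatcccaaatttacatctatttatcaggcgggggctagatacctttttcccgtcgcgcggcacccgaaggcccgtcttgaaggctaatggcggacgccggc
Sf3b2, chr19:5295408-5295707, minus strand: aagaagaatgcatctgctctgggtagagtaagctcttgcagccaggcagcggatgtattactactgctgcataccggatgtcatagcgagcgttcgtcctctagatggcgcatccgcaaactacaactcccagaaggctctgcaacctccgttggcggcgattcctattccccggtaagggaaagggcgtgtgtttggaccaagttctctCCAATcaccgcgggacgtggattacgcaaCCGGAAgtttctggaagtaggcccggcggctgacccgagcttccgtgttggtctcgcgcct

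The windows of Sf3b1 and Sf3b3 held none of the motifs in common. That of Sf3b1 held 2 GC boxes, 73 and 62 bases before the start, a motif found in 35.9% of 27025 promoters of this length. The window of Sf3b3 held CCAAT in reverse 152 bases before the start, TATAAA 96 bases before it and an ETS core 228 bases before it. These occur in 37.9%, 14.2% and 15.2% of promoters. Sf3b2 held CCAAT at 40 bases and an ETS core at 11 bases before the start. The window of Sf3b6, which did not pass either and is not printed, held 2 GC boxes, as that of Sf3b1 did, and 3 ETS cores. Neither CACGTG (7.24% of promoters), GCGCATG (4.04%), AAGATGG (6.48%) nor a p53 half-site pair (0.0592%) was found in any of these windows. The windows held 24, 20 and 23 CpG pairs for Sf3b1, Sf3b3 and Sf3b2, against a median of 7 over all promoters.

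The promoter window of Sf3b3 lies within another gene. Cog4, which encodes a subunit of a Golgi tethering complex, runs in the opposite direction from chr8:110846600, so the starts of both genes overlap and 188 bases (1.72%) of the exons of Sf3b3 are shared. Cog4 was read at 87.0, 81.8 and 88.8 CPM in the wild-type pools and 67.6, 68.8 and 73.3 CPM in the mutant pools. Its mutant pools lay below all wild-type pools, the opposite of Sf3b3, and it fell by 0.30 on the log2 scale (SE 0.0775, edgeR adjusted p = 0.0306). The call was lost without wild-type pool 2 (edgeR adjusted p = 0.0577) and without mutant pool 1, 2 or 3 (0.2, 0.143 and 0.0567). These fits called 1.61% to 3.06% of all tested genes, against 6.52% with all pools.

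Phf5a, the gene of the small zinc-binding partner of SF3B1 at the branch site, lies at chr15:81864520-81871911 (mm10, minus strand). Its levels were 153, 145 and 154 CPM in the wild-type pools and 175, 180 and 189 CPM in the mutant pools. The groups did not overlap, and Phf5a rose 1.20-fold, a log2 fold change of 0.27 (SE 0.071, 95% interval 0.12 to 0.42, edgeR adjusted p = 0.0356). The call was lost without wild-type pool 2 (0.116), without mutant pool 1, 2 or 3 (0.123, 0.109 and 0.128), among the 4 pools that had Y-linked counts (0.0833) and after correction for exon length and GC (0.0741, all edgeR adjusted p). Its log2 fold change stayed between 0.19 and 0.29 in these and the other settings. Without wild-type pool 2 or any 1 mutant pool, 1.61% to 3.06% of all tested genes were called, against 6.52% with all pools. The processed pseudogenes Gm21181 and Gm20769, which match 330 bases of Phf5a at 93.9% identity, were listed at 0 in every pool.

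The other small subunits had smaller differences. Sf3b5, which encodes a short protein wedged between the larger subunits, has a single exon (chr10:13005343-13009183, mm10, plus strand), so its own transcript needs no splicing. It was read at 82.3, 76.9 and 78.0 CPM in the wild-type pools and 90.3, 92.4 and 89.1 CPM in the mutant pools. The mutant pools lay above the wild-type pools, as they did in 13.8% of tested genes. The log2 fold change of 0.20 (SE 0.0738, 95% interval 0.04 to 0.35) did not pass (edgeR adjusted p = 0.127). Sf3b6, whose protein has an RNA recognition motif and lies near the branch adenosine, is at chr12:4817544-4827659 (mm10, plus strand). Its levels were 81.6, 74.0 and 93.0 CPM in the wild-type pools and 94.2, 91.3 and 99.3 CPM in the mutant pools. Mutant pool 2 lay below wild-type pool 3, and the log2 fold change of 0.19 (SE 0.0872, 95% interval 0.01 to 0.37) did not pass (edgeR adjusted p = 0.202). Without wild-type pool 3 it was 0.28 and passed (edgeR adjusted p = 0.0365), the sole pass in 20 alternative settings, in a fit that called 12.7% of all tested genes. It was 0.13 without wild-type pool 2 (0.476) and 0.089 after correction for exon length and GC (0.53, both edgeR adjusted p).

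Sf3b2 stood level. It encodes the subunit that SF3B4 binds directly, and it lies at chr19:5273932-5295455 (mm10, minus strand). The wild-type pools had 568, 476 and 521 CPM and the mutant pools 509, 528 and 532 CPM, all within the wild-type range. The means were 522 ± 46.1 and 523 ± 12.3 CPM (SD, n = 3 pools each), and the change of 0.226% had a 95% interval of -10.5% to 12.3% (edgeR adjusted p = 0.986). That interval does not reach the rise of Sf3b1 or Sf3b3.

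**Figure D2:**
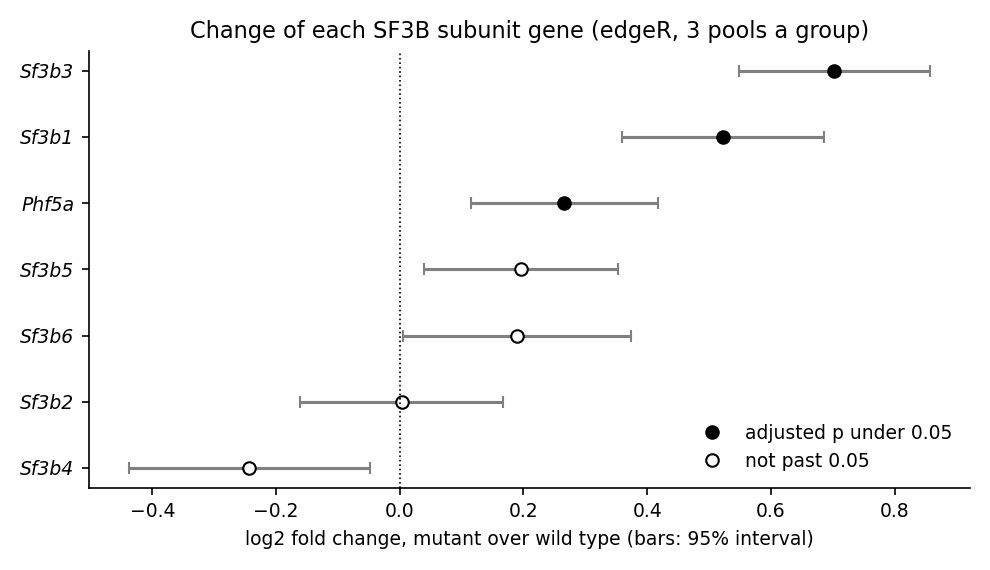
Log2 fold change of each SF3B subunit gene, mutant over wild type, with the 95% interval from the edgeR fit on 3 pools a group. Filled points passed (Sf3b3 0.70, Sf3b1 0.52, Phf5a 0.27), and open points did not, with Sf3b4 lowest at -0.24.

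The proportions among the subunits were then compared within each pool, where library scaling cancels. For each of the 21 pairs of subunit genes the log2 ratio of their CPM was taken in every pool. In 15 pairs (71.4%) the 3 mutant pools lay apart from the 3 wild-type pools, as they did in 26.4% of all pairs of tested genes. The pairs share genes and are not independent, and most of the 15 include Sf3b1 or Sf3b3, the genes that rose most. With 3 pools against 3 no exact permutation test can go below p = 0.1, which those 15 pairs reached (two-sided; 0.14 adjusted over the 21 pairs), so none could pass 0.05.

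The ratio of Sf3b3 to Sf3b4 changed most. Its log2 was 2.89, 2.98 and 3.06 in the wild-type pools and 3.96, 3.90 and 3.89 in the mutant pools. These sets lie far apart beside their spread, and the difference of 0.94 (SE 0.0547) is a 1.92-fold shift. The ratio of Sf3b1 to Sf3b4 had a log2 of 3.08, 3.25 and 3.61 against 4.16, 4.02 and 4.05, a difference of 0.77 (SE 0.161) or 1.70-fold. The ratio of Sf3b2 to Sf3b4, the genes of 2 subunits that bind each other, was 2.87, 2.71 and 3.03 against 3.18, 3.04 and 3.13, a difference of 0.25 (SE 0.101), with the lowest mutant pool barely above the highest wild-type pool. Against Sf3b6 the log2 ratio of Sf3b4 differed by -0.44 (SE 0.181), and the pools overlapped (exact permutation p = 0.2). In all, Sf3b4 was lower in the mutant pools, with no overlap, against 5 of the other 6 subunits. Among those 5 are Sf3b1, Sf3b3 and Phf5a, which rose themselves. The share of all genes that lay lower against each of them was not computed. Against the mean of the 6 subunits, 55.7% of 13983 tested genes lay lower without overlap.

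Among the other subunits the pairs fell into sets that moved alike and sets that did not. The ratio of Sf3b1 to Sf3b3 differed by -0.18 (SE 0.111) and overlapped between the genotypes, although both genes rose. The ratios of Sf3b5 to Sf3b6, Sf3b5 to Phf5a and Sf3b6 to Phf5a differed by -0.0043, -0.07 and -0.07 (SE 0.108, 0.0487 and 0.0771), all with overlapping pools. Sf3b3 gained on Sf3b2 by 0.70 (SE 0.0887), on Sf3b5 by 0.51 (SE 0.0494), on Sf3b6 by 0.50 (SE 0.146) and on Phf5a by 0.43 (SE 0.0733), each without overlap. Sf3b1 gained on Sf3b2 by 0.52 (SE 0.119) and on Sf3b5 by 0.33 (SE 0.0935), each without overlap. It also gained without overlap on Sf3b6 (0.33, SE 0.0818) and Phf5a (0.26, SE 0.0778). Sf3b2 lost against Sf3b5 (-0.19, SE 0.0527) and Phf5a (-0.26, SE 0.0568) without overlap. Against Sf3b6 its difference was -0.19 (SE 0.0978) with overlap.

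**Figure D3:**
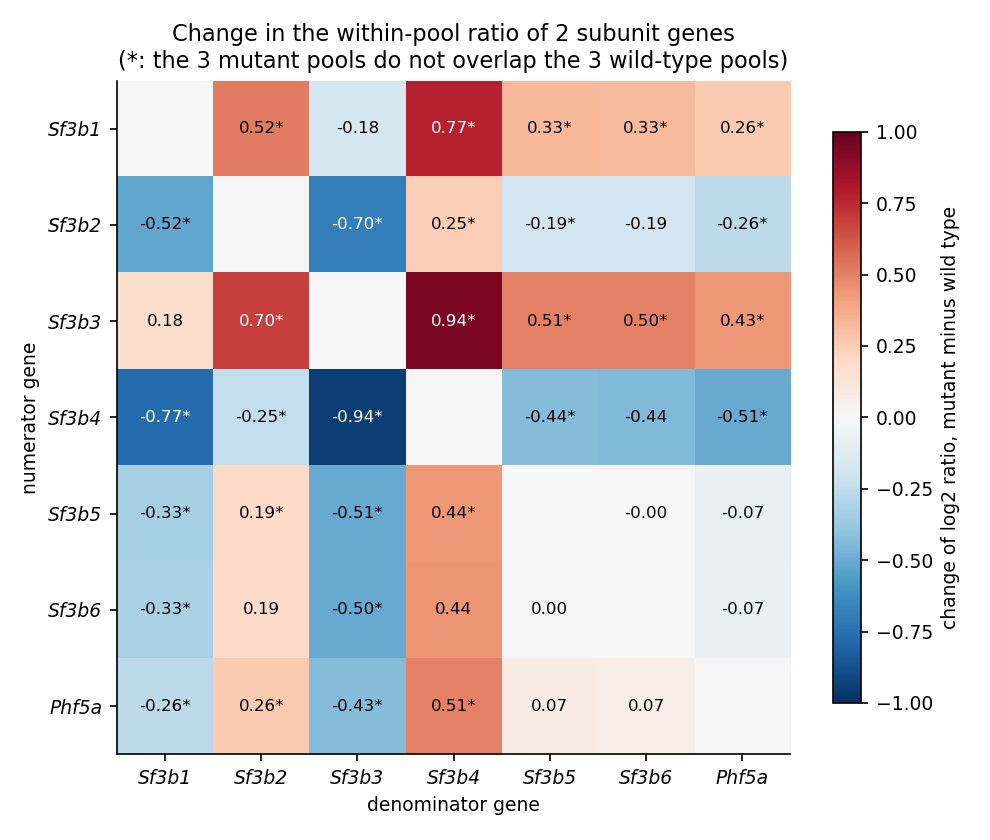
Change in the within-pool log2 CPM ratio (mutant mean minus wild-type mean) for every pair of subunit genes, with the numerator in rows and the denominator in columns. Starred cells are pairs whose 3 mutant pools do not overlap the 3 wild-type pools. The row of Sf3b4 is negative throughout, and its cell against Sf3b6 has no star.

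Each subunit was also set against the mean log2 CPM of the other 6. For Sf3b4 this index was -1.66, -1.67 and -1.96 in the wild-type pools and -2.40, -2.25 and -2.32 in the mutant pools. All mutant pools lay below all wild-type pools, and the difference was -0.56 (SE 0.108, exact permutation p = 0.1, two-sided, the smallest possible; 0.175 adjusted over the 7 subunits). Set against the same 6 subunits, 55.7% of 13983 tested genes with counts in every pool lay lower without overlap, as Sf3b4 did. With Sf3b1 and Sf3b3 left out of the reference the difference was -0.41. The index rose without overlap for Sf3b3 (0.54, SE 0.0654) and Sf3b1 (0.34, SE 0.0922) and was lower without overlap for Sf3b2 (-0.27, SE 0.0587). Each gene enters the reference of the others, so the index of a level gene falls where the others rise. The log2 fold change of Sf3b2 itself was 0.0033 (edgeR adjusted p = 0.986). The index overlapped for Sf3b5 (-0.05), Sf3b6 (-0.04) and Phf5a (0.04).

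**Figure D4:**
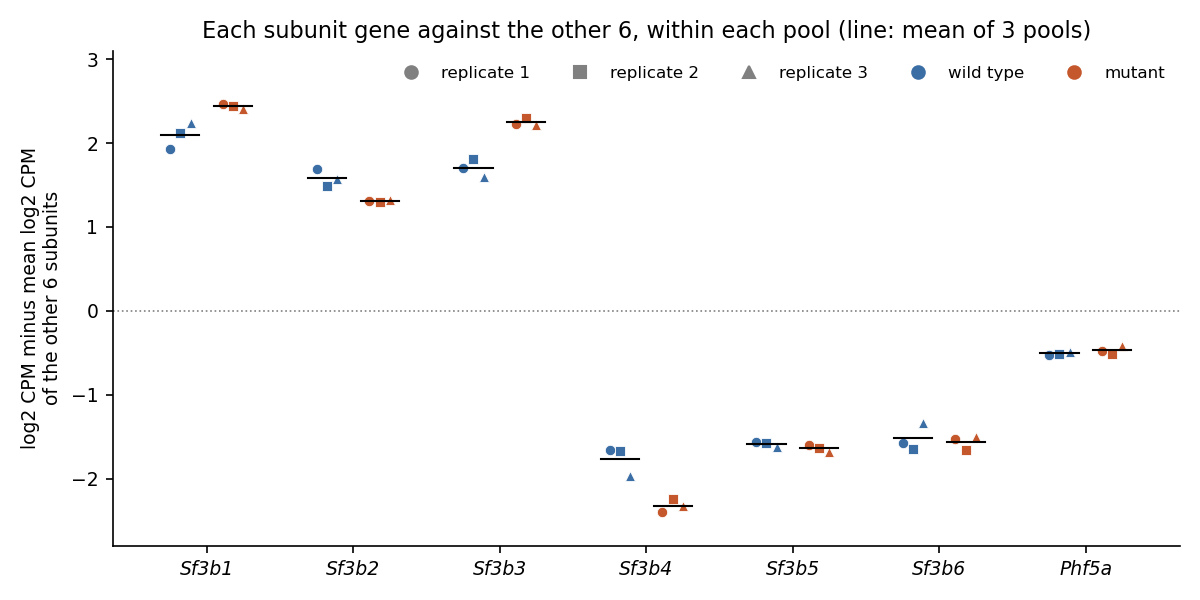
Log2 CPM of each subunit gene minus the mean log2 CPM of the other 6, with 1 symbol per pool and a line at the mean of 3 pools. Relative to the others, Sf3b3 and Sf3b1 are higher and Sf3b4 and Sf3b2 lower in all mutant pools, and Sf3b5, Sf3b6 and Phf5a overlap. The CPM of Sf3b2 itself stood level between the genotypes.

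Levels of different genes compare only per length, here as CPM per kb. With the length of all merged exons, the wild-type order was Sf3b2 (76.5 ± 6.76 CPM per kb), Phf5a (69.5 ± 2.22), Sf3b1 (62.4 ± 5.48), Sf3b3 (51.3 ± 2.28), Sf3b4 (33.0 ± 3.22), Sf3b6 (29.0 ± 3.35) and Sf3b5 (20.6 ± 0.745; SD, n = 3 pools each). The ranges of Sf3b2 and Phf5a overlapped, as did those of Phf5a and Sf3b1 and those of Sf3b4 and Sf3b6, whereas the other neighbours lay apart. In the mutant pools Sf3b1 (89.7 ± 1.77), Phf5a (83.7 ± 3.19) and Sf3b3 (83.5 ± 3.87) stood above Sf3b2 (76.7 ± 1.81). Sf3b6 (33.3 ± 1.41) stood above Sf3b4 (27.9 ± 1.89), and Sf3b5 (23.6 ± 0.432) remained lowest. Sf3b4 made up 10.3%, 10.2% and 8.52% of the summed levels per kb of the 7 genes in the wild-type pools and 6.38%, 6.97% and 6.67% in the mutant pools.

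The order depended on the gene model. Non-coding transcripts in the annotation bring the merged exons of Sf3b1 to 11370 bases and those of Sf3b3 to 10919, against 6195 and 4525 in their longest coding transcripts. With coding transcripts, Sf3b2 (162 CPM per kb), Sf3b3 (124) and Sf3b1 (115) led in the wild-type pools. Sf3b3 (201) led in the mutant pools, and Sf3b4 stood at 37.3 and 31.5, second from the bottom in both genotypes. Sf3b5 is annotated with 3841 bases in GENCODE and 734 in RefSeq, and on the shorter model its wild-type level was 108 ± 3.90 CPM per kb in place of 20.6. With that length Sf3b4 was the lowest of the 7 per coding transcript. The counts do not separate spliced transcripts from ones that retain an intron.

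**Figure D5:**
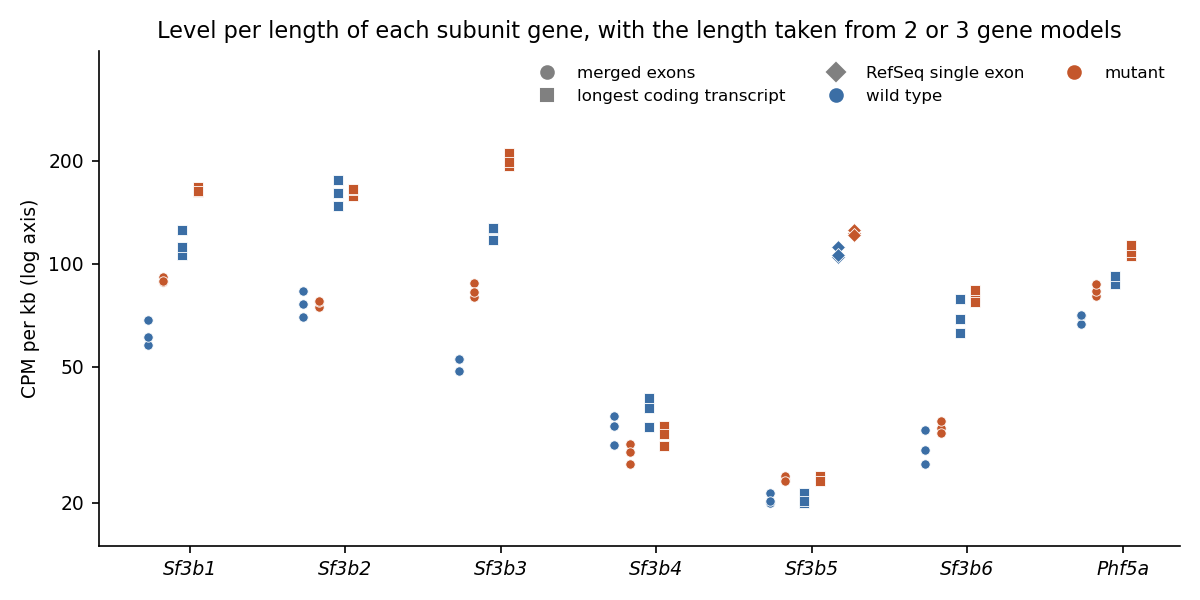
CPM per kb on a log axis for each pool, with the gene length from merged exons (circles), the longest coding transcript (squares) or, for Sf3b5, the RefSeq exon (diamonds). Sf3b5 moves from 20.6 to 108 CPM per kb in the wild-type pools with the gene model, more than any gene differs between genotypes.

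Few genes of proteins that work beside SF3B were called, 1 in each of 3 lists, beside 6.52% of all genes. Lists this short cannot show whether their genes were called as often as all genes. The list of the U2 particle and branch-site partners held 26 genes, all tested, among them the SF3A subunits, the U2AF pair and Sf1. Rbm17, whose protein binds SF3B1, rose (149, 147 and 151 CPM against 175, 184 and 173; log2 fold change 0.25, SE 0.0697, edgeR adjusted p = 0.041). The other 25 did not pass, and the list median was 0.04. The call of Rbm17 was lost without wild-type pool 2 (edgeR adjusted p = 0.109), without mutant pool 1, 2 or 3 (0.167, 0.17 and 0.0858) and among the 4 pools that had Y-linked counts (0.0632). It was also lost with library size alone (0.0509) and with no filter on low counts (0.0571). DESeq2 called 3 of the 26 higher and limma-voom 2, and without wild-type pool 3 edgeR called 4. That last fit called 12.7% of all tested genes, against 1.61% to 3.06% without wild-type pool 2 or any 1 mutant pool.

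Of 13 proteins of the U11/U12 particle and minor-intron splicing, where SF3B also acts, Scnm1 alone rose (17.1, 18.2 and 16.6 CPM against 28.0, 24.6 and 21.7; 0.53, SE 0.117, edgeR adjusted p = 0.0138). The list median was 0.26, and 11 of the 13 had positive fold changes, as did 50.3% of all tested genes. That single call among 13 genes stands beside 2.65% of all genes called higher and 6.52% called in either direction. It is too few to read as a result about the list. The call of Scnm1 was lost without mutant pool 1 (0.133) and without mutant pool 2 (0.0502). DESeq2 called 2 of the 13 higher, and edgeR called 2 without wild-type pool 2 and 3 without wild-type pool 3. These edgeR fits called 2.55% and 12.7% of all tested genes. Without mutant pool 1 and without mutant pool 2 the shares were 1.61% and 2.7%. Scnm1 lies 1.04 Mb before Sf3b4 on chromosome 3, and whether that position bears on its level was not tested.

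SF3B3 and SF3B5 are also subunits of SAGA, a histone acetyltransferase coactivator. Of 21 tested genes of other SAGA subunits, Trrap, its large scaffold, fell by 0.45 (SE 0.078, edgeR adjusted p = 0.00283), from 361, 367 and 333 CPM to 263, 275 and 236 CPM, and the other 20 did not pass. Over all genes 3.88% fell, so 1 call of 21 is near that share. The list median was -0.06, and 5 of the 21 had positive fold changes, as did 50.3% of all tested genes. Trrap did not pass after correction for exon length and GC (-0.17, edgeR adjusted p = 0.0953). Ddb1 and Cpsf1, which encode the propeller-fold relatives of SF3B3, had log2 fold changes of -0.05 and -0.17 and did not pass (edgeR adjusted p = 0.745 and 0.181). Cpsf1 passed without wild-type pool 3 (-0.23, edgeR adjusted p = 0.0495), in the fit that called 12.7% of all tested genes.

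The profiles nearest to those of Sf3b3 and Sf3b4 were sought among 9125 other genes with a mean of at least 10 CPM and no predicted gene model, by the root mean square distance of centred log2 CPM over the 6 pools. Nearest to Sf3b3 were H2afj (0.0622), Nhlrc2 (0.0667) and Ggta1 (0.0715), with fold changes of 0.67, 0.77 and 0.79 on the log2 scale. Sf3b1 ranked 41 by this distance (0.141) and Phf5a 344, while Sf3b4 ranked 7815. Nearest to Sf3b4 were Depdc5 (0.0233), Kazn (0.0246) and Mrc2 (0.0264). None of its fellow subunits was near it: Sf3b2 came closest, at place 2721, and Sf3b3 was at place 9009.

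The heads held other cell types, and some of their markers differed between the genotypes, beside 2.65% of all genes higher and 3.88% lower. Of 12 neural crest markers 6 were lower (4 to 7 with a pool left out), with a summed level of 791 to 838 CPM in the wild-type pools and 688 to 782 CPM in the mutant pools. The median log2 fold change of the 12 was -0.54. The sum is weighted by the most abundant of them, at 361 to 411 CPM in wild-type and 393 to 446 CPM in mutant pools. It was the only 1 with a positive fold change (0.12). Of 10 surface ectoderm markers 4 were higher (427 to 473 against 550 to 609 CPM), and 2 without mutant pool 3. Of 7 tested head mesoderm markers 4 were higher (206 to 228 against 278 to 302 CPM), but 2 by DESeq2, 1 without mutant pool 1, and 2 without wild-type pool 2, mutant pool 2 or mutant pool 3. Of 10 endothelial markers 1 was higher (254 to 285 against 304 to 317 CPM), and 0 without wild-type pool 2 or any 1 mutant pool, with 2 to 4 then higher at an unadjusted p under 0.05. With all pools, at least 3098 of the 14008 tested genes reached that unadjusted level, in either direction. Of 12 neural tube markers 3 were lower (494 to 514 against 470 to 492 CPM), and 2 to 3 with a pool left out. The summed levels of erythroid markers (105 to 266 against 79.0 to 173 CPM), heart markers (33.5 to 105 against 49.1 to 59.5 CPM) and extraembryonic markers (5.84 to 7.35 against 5.34 to 9.48 CPM) overlapped. With all 6 pools these had 0 calls by edgeR, DESeq2 or limma-voom and 0 at an unadjusted p under 0.05. Only 6 of 9 erythroid, 8 of 9 heart and 2 of 7 extraembryonic markers had enough counts to be tested. So few genes cannot show that the groups were alike. Without wild-type pool 3, which had the lowest heart level, 4 heart markers were lower, and without wild-type pool 1, which had the lowest erythroid level of its group, 1 erythroid marker was lower, as among the 4 pools that had Y-linked counts. Over all tested genes the share called was 12.7% without wild-type pool 3 and 6.97% without wild-type pool 1. It was 1.61% to 3.06% without wild-type pool 2 or any 1 mutant pool. Hba-a2 was at 0 in every pool. The neural tube and neural crest markers of an embryo head were thus read in every pool. The part of these differences in the SF3B values was not tested.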

How the data were processed

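Total RNA from 6 pools of embryo heads was sequenced, with RNA from a Qiagen micro kit and Illumina TruSeq total RNA libraries, per the labels' protocols. Each pool has 1 deposited file of raw read counts by Ensembl gene, and the values are whole, with no normalization. Per the submitters' processing notes the build was mm10. The sources used here name no aligner or counter and do not say whether strand was used. Of 54532 IDs, 54495 matched GENCODE M21 (GRCm38), which gave symbols, positions and lengths.

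Genes were kept with filterByExpr, scaled by TMM factors and tested with edgeR 4.0.16 in R 4.3.3 (glmQLFit with robust estimation, glmQLFTest, genotype as the sole term, all 6 pools, adjusted p under 0.05 over all 14008 genes). SEs are the fold change divided by the square root of F, and 95% intervals use the fit's degrees of freedom. Samples were grouped by their titles. Ratios were compared with exact permutation tests over pools. Copies were sought with BLAST 2.17.0 (at least 90% identity over 100 bases). No 2 pools of a genotype were alike within sampling noise (chi-square over its degrees of freedom, 2.81 to 9.19). On simulated counts (13800 genes) the edgeR step recovered 63.6% of genes changed 1.5-fold and 82.8% of those changed 2-fold, with 12 false among 157 calls.

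The members, gene lists, alternatives and named genes were chosen with earlier results of these data known. The genes named are the 7 members, of each other pathway list (not the marker lists) up to 4 that passed or else the 2 with the smallest p, the 3 nearest profiles to Sf3b3 and to Sf3b4, and near-identical copies; Cog4 and Gm17690 were added because their exons overlap a member, and Hba-a2 as a marker at 0, after its values were seen. The alternatives were DESeq2 1.42.0, limma-voom (limma 3.58.1), other scalings and filters, a fit without robust estimation, a threshold of 0.1, a replicate block, the loss of any 1 pool, the Y-linked level as a covariate, only the 4 pools that had Y-linked counts, and correction for exon length and GC (splines with 4 degrees of freedom). A filter of 5 CPM in 3 pools, the counts of Gm7935 added to Sf3b4, and other gene lengths were chosen after seeing the data.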

Additional observations from a re-analysis of the deposited data

How the results depend on the processing

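Sf3b1 and Sf3b3 passed under all 20 alternative settings run for the subunit genes. Not all of these could fail for them. The threshold of 0.1 reads the main fit, and the filter of 1 CPM in 3 pools repeats it. Adding the counts of Gm7935 to Sf3b4 barely alters the other genes. The number of SF3B genes called was 3 in the main analysis and 2 to 5 with a pool left out, and 5 came without wild-type pool 3, when Sf3b4 and Sf3b6 also passed. That fit called 12.7% of all tested genes, against 6.52% in the main fit. Without wild-type pool 2 the share was 2.55%, and without mutant pools 1, 2 and 3 it was 1.61%, 2.7% and 3.06%. Sf3b2 turned negative with library size alone (-0.021), with at least 5 CPM in 3 pools (-0.00082), without wild-type pool 2 or mutant pool 3 (-0.051 to 0.071 over the fits without a pool, -0.0091 without mutant pool 3), and did not pass in any setting. A filter of 1 CPM in 3 pools kept the same 14008 genes. The difference of Sf3b4 from the other subunits stayed between -0.66 and -0.38, without a pool between -0.66 and -0.50. The number of partner genes called was 1 in each list and, with a pool left out, 0 to 4 for the U2 list, 0 to 3 for the U11/U12 list and 1 to 2 for SAGA. Where only pools that had Y-linked counts entered, edgeR called 0 of the U2 list, with 5 higher and 1 lower at an unadjusted p under 0.05. In the main fit 6 of that list were higher and 1 lower at that unadjusted level. At least 3098 of all 14008 tested genes reached it there, in either direction. Over all genes 914 were called, against 230 to 1810 with a pool left out, 535 among pools that had Y-linked counts, 1658 with the Y-linked level as a covariate and 1550 at an adjusted p under 0.1. The replicate numbers did not pair the pools (correlation of deviations -0.161, 0.0515 and -0.0598 for numbers 1, 2 and 3). With the replicate block 2 SF3B genes and 694 genes in all were called; Phf5a was lost (edgeR adjusted p = 0.0671), as were Cog4 (0.0568) and Rbm17 (0.0826). Counting errors were highest for Sf3b4, Sf3b5 and Sf3b6, at up to 4.71%, 4.29% and 4.37% per pool. The SD between wild-type pools was 9.76%, 3.62% and 11.5% of the mean, above the counting error for Sf3b4 and Sf3b6.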
